A study of Mus musculus with 3 samples.

Results

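The genes described here are 10 members of the Notch pathway: the ligands Dll4, Jag1 and Jag2, the receptors Notch1, Notch2 and Notch4, the DNA-binding factor Rbpj, the target genes Hes1 and Dtx1, and Esam, an adhesion molecule that marks Notch2-dependent dendritic cells of the spleen. They are 10 of the 22548 genes of the matrix, listed by name with earlier results of these data known. Their mRNA was followed in migratory dendritic cells sorted on day 5 from ear-draining lymph nodes, after the mice had received MC903 on days 0, 2 and 4. MC903 is an analogue of vitamin D and causes inflammation when put on skin. All cells came from mice with the same 3 alleles, SiglechiCreTg/0, which drives Cre from the Siglech gene, ROSA26LoxP-STOP-LoxP-RFP, which turns RFP on for good in cells where Cre has acted, and Tnfsf4KI/+, a knock-in at 1 copy of the OX40L gene that carries BFP. The gate took cells high in MHC class II and low to intermediate in CD11c that lacked B220, XCR1 and CD326. XCR1 marks type 1 conventional dendritic cells and CD326 marks Langerhans cells, which the gate was meant to remove. Sorting by both reporters gave 4 populations, each with its own hashtag antibody: BFP+RFP+ (5200 cells pooled), BFP-RFP+ (5200), BFP+RFP- (10400) and BFP-RFP- (5200). All were MC903-treated, and the number of mice behind the pool is not given in the sources used here.

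Cells were read by CITE-seq, which counts the mRNA molecules of a cell and the antibody tags bound to it (here CD11b, CD8a, CD172a and CD301b) as unique molecular identifiers (UMIs). A cell was kept when 1 hashtag held at least 80% of its hashtag UMIs, the mRNA UMIs numbered 1000 or more, and the mitochondrial share was 10% or less. The mRNA, tag and hashtag counts stand in 1 matrix over the same 6079 barcodes, of which 5023 were left: 842 in BFP+RFP+, 982 in BFP-RFP+, 2185 in BFP+RFP- and 1014 in BFP-RFP-. Populations are given in this order throughout, and their median depths were 13884 to 15182 mRNA UMIs per cell. Of the barcodes a hashtag had been assigned to, 13.5% of BFP-RFP- and 8.22% of BFP-RFP+ cells failed the filters, against 4.10% of BFP+RFP+ and 3.32% of BFP+RFP- cells. Each population is 1 sample of 1 sort and 1 capture, so no difference was tested and no p-value can be given. Levels are UMIs per 1000000 mRNA UMIs (CPM) with 95% intervals that cover counting error only. They are not scaled by gene length and serve to compare populations or clusters for 1 gene, not genes with each other.

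In Notch signalling a ligand of the Delta-like or Jagged family on 1 cell binds a Notch receptor on its neighbour. Proteases then free the receptor's intracellular part, which enters the nucleus, joins RBPJ and the Mastermind coactivators, and turns on targets such as Hes1 and Dtx1. Dendritic cells use the pathway in both roles: Notch2 is needed for some type 2 conventional dendritic cells, and DLL4 and the Jagged ligands of dendritic cells are known to act on the differentiation of the T cells they meet.

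Dll4 and Rbpj ran in opposite orders across the populations, so the 250 bases before their start sites are shown, from RefSeq (GRCm38.p6, another build than the one of the deposited counts). Capitals mark matches on either strand to the RBPJ core motif TGGGAA or to the HES N-box CACNAG, which do not overlap each other here. Rbpj has a further RefSeq start site, whose window overlaps this one.
Dll4, chr2:119325534-119325783 (+ strand): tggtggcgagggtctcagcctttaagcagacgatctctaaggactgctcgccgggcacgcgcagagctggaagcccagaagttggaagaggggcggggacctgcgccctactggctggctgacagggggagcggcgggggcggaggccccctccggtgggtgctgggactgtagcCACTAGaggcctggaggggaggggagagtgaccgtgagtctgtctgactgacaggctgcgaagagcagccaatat
Rbpj, chr5:53590096-53590345 (+ strand): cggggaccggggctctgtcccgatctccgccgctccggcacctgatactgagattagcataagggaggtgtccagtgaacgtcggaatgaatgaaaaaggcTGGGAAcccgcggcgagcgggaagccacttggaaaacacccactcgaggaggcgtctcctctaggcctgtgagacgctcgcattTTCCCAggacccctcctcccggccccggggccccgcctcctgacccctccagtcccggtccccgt
The Rbpj window held 2 matches to the RBPJ core, which begin 149 and 65 bases before the start site, and none to the N-box. The Dll4 window held 1 N-box match 75 bases before the start site and no RBPJ core. Among 32851 such windows of the table, 21.6% held the core and 36.7% the N-box. Of the 10 members 8 had an entry, all but Hes1 and Esam, and among these the core was found before Rbpj alone. A match is a description of these letters and no measured site.

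Which cells held the UMIs of each member was asked first, because the sort contained other cells. Clustering without the members, the wider Notch list, Tnfsf4, Siglech and the reporters gave 11 clusters. The dendritic cell label was given to 7 of them, with 4526 cells or 90.1%, in which all 15 migratory dendritic cell markers (among them Ccr7, Fscn1 and Relb) were detected. The rest comprised a B cell-like cluster of 93 cells, a T and NK cell-like cluster of 229 cells and 2 macrophage-like clusters with 175 cells in all. The T and NK cell-like cluster also had the salivary gland genes Bpifa2 and Smr3a among its 10 leading genes, and the larger macrophage-like cluster, number 10, also had raised markers of type 2 conventional dendritic cells. All 15 migratory dendritic cell markers were detected in cluster 10 too. The other macrophage-like and the T and NK cell-like cluster had 14 of them and the B cell-like cluster 12. These clusters were named by raised markers, so their names do not mean that dendritic cell mRNA was absent. Endothelial cells are a classic source of Dll4, Jag1, Notch4 and Esam, but of 13 endothelial markers 10 or 11 had under 10 UMIs in each population, at 8.06 to 14.99 CPM in sum. Tie1 and Sox17 were at 0, Cldn5 at 2 and Cdh5 at 8 UMIs over all kept cells. Pecam1, at 695 UMIs and raised in the B cell-like cluster, the T and NK cell-like cluster and cluster 10, and Kdr, at 118, were the most abundant of the list.

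The members fell into 2 sets. Dendritic clusters held 93.5% of the Dll4, 94.5% of the Jag1, 91.8% of the Jag2, 88.3% of the Notch2, 94.4% of the Rbpj and 94.5% of the Esam UMIs. They held far less of the others: 23.3% of Notch1, 32.6% of Dtx1 and 19.4% of Hes1. For comparison, the dendritic clusters had 90.1% of the cells. Notch4 had 7 UMIs in all, each in a dendritic cell, too few to describe further.

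**Figure D1:**
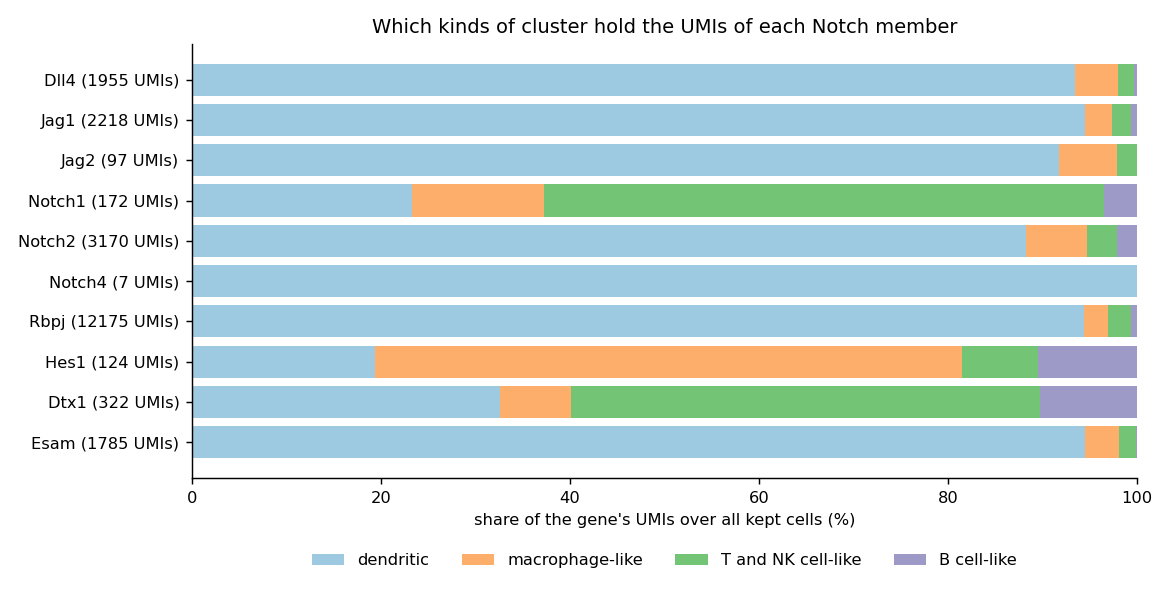
Share of each member's UMIs (x axis, %) that lay in dendritic, macrophage-like, T and NK cell-like and B cell-like clusters, over all kept cells, with the gene's UMI total beside its name. Notch1 and Dtx1 had their largest share in T and NK cell-like cells (59.3% and 49.7%), Hes1 in macrophage-like cells (62.1%) and the others in dendritic cells.

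Dll4, the Delta-like ligand, was the member that differed most with RFP. It stood at 42.9 CPM (39.5 to 46.4) in BFP+RFP+, 36.1 (33.2 to 39.2) in BFP-RFP+, 17.3 (15.9 to 18.7) in BFP+RFP- and 11.2 (9.53 to 13.0) in BFP-RFP- cells, from 606, 568, 615 and 166 UMIs. Both RFP+ populations were thus above both RFP- populations, and no counting intervals overlapped. Within BFP+ the RFP+ cells had 2.48 times the level of the RFP- cells (log2 1.31, interval 1.15 to 1.47), and within BFP- they had 3.23 times it (log2 1.69, interval 1.44 to 1.95). BFP+ over BFP- was smaller, at log2 0.63 (0.38 to 0.89) within RFP- and 0.25 (0.08 to 0.42) within RFP+. Restriction to the dendritic clusters moved these 4 log2 ratios little, to 1.34, 1.66, 0.55 and 0.23, which put BFP+ over BFP- within RFP- just under 1.5-fold.

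**Figure D2:**
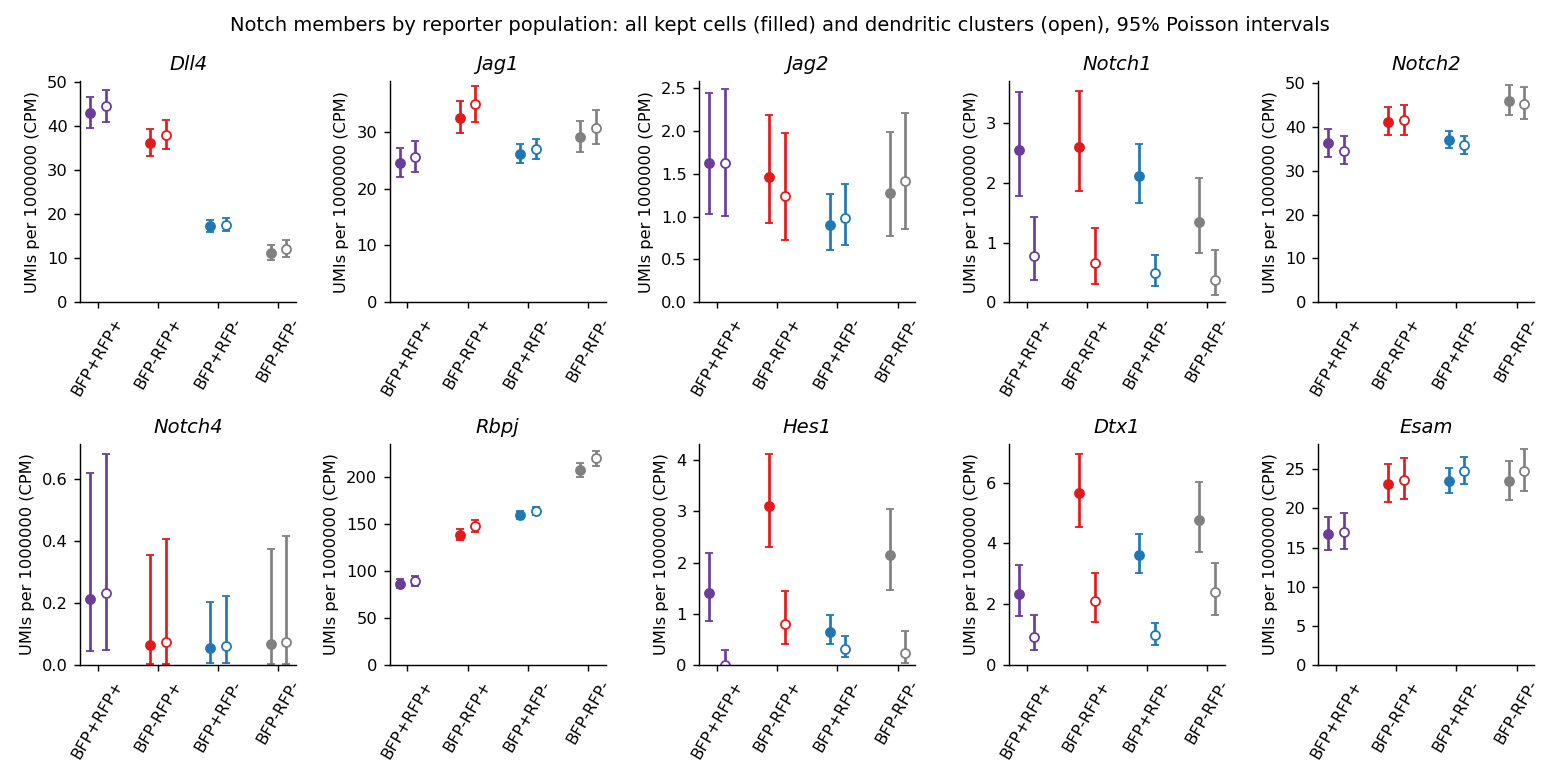
CPM of each member (y axis, starting at 0, own scale per panel) in the 4 populations, in all kept cells (filled) and in dendritic clusters alone (open), with 95% Poisson intervals. Dll4 was highest in the RFP+ and Rbpj in the BFP-RFP- cells, and the levels of Notch1, Hes1 and Dtx1 dropped once other cells were left out.

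The Dll4 mRNA was concentrated in a minority of cells. A UMI was seen in 22.0%, 15.4%, 8.83% and 6.41% of the cells, and cells with 5 or more Dll4 UMIs, 132 in all, held 58.0% of the Dll4 UMIs. With every cell thinned to 5000 UMIs, which left out 56, 82, 153 and 86 shallower cells, the shares were 11.8%, 9.22%, 4.23% and 3.12%. The B cell-like and T and NK cell-like cells should lack the gene by type, though 12 and 14 of 15 dendritic cell markers were detected in them. Together they stood at 3.29% (1.43% to 6.38%), which holds the shares of both RFP- populations. At 3000 UMIs per cell they stood at 0.33% (0.0082% to 1.80%), on 1 of 307 cells. The BFP+RFP- cells then stood at 2.76% (2.11% to 3.54%) and the BFP-RFP- cells at 2.77% (1.84% to 4.01%). The RFP- shares against that level, and against each other, thus depended on the depth chosen. These B cell-like and T and NK cell-like cells were shallower before thinning, with cluster medians of 5021 and 8934 UMIs. Within dendritic clusters the thinned share went from 0.29% in cluster 3 to 22.7% in cluster 4, so it differed between clusters far beyond that level.

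Cluster 4, whose leading genes included Chl1, Thy1 and Tnfsf4, held 1175 of the 1955 Dll4 UMIs (60.1%), at 75.0 CPM (70.7 to 79.4). Macrophage-like cluster 10 stood at 25.1 CPM. Among the other dendritic clusters, 1 and 0 followed at 31.3 and 22.2 CPM, then cluster 2 at 14.9, and clusters 6, 7 and 3 were lowest at 4.16, 4.24 and 0.45. A cluster is a description, since the same cells define it and give its level. In cluster 4 Dll4 was at 83.9 CPM in BFP+RFP+, 86.5 in BFP-RFP+, 60.1 in BFP+RFP- and 53.4 in BFP-RFP- cells, from 253, 197, 197 and 53 cells. RFP+ cells were thus higher here too, by 0.48 (0.26 to 0.70) in the BFP+ and 0.69 (0.31 to 1.09) in the BFP- state. The BFP ratios in cluster 4 were -0.04 (-0.25 to 0.16) and 0.16 (-0.22 to 0.58), both with intervals across 0.

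The other dendritic clusters differed among themselves. In cluster 2 the RFP ratio was 1.11 (0.43 to 1.85) within BFP+ and 1.48 (0.19 to 3.33) within BFP-, the latter on 26 against 5 UMIs. In cluster 7 it was 0.65 (-0.77 to 1.77) and 1.83 (0.76 to 3.09), and in cluster 6 it was 1.18 (0.02 to 2.49) within BFP-. Cluster 1 gave 1.20 (0.60 to 1.82) within BFP+ but 0.00 (-0.63 to 0.68) within BFP-. In cluster 0, rich in CD11b tag and led by Ifitm1 and Isg15, it was -0.06 (-1.10 to 0.72) and -1.47 (-3.57 to -0.14), the latter on 4 against 37 UMIs. The BFP ratio within RFP- also differed in direction between clusters. It was 1.02 (0.52 to 1.59) in cluster 0, on 190 against 37 UMIs, and -1.44 (-2.15 to -0.71) in cluster 1, on 41 against 30. In clusters 2 and 7 the BFP ratios had intervals across 0. Outside the dendritic clusters, macrophage-like cluster 10 had 64.0, 35.5, 13.4 and 4.08 CPM in the 4 populations, from 5, 10, 3 and 2 cells with a Dll4 UMI, and an RFP ratio of 2.97 (1.65 to 5.06) within BFP-. With the same mix of dendritic clusters in each population the RFP ratios of Dll4 came to 0.48 and 0.56, under the 1.5-fold mark of 0.58. The BFP ratios came to -0.05 and 0.03, over clusters that differed in direction within RFP-. The difference in Dll4 between populations was therefore smaller when their cluster make-up was held equal.

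**Figure D3:**
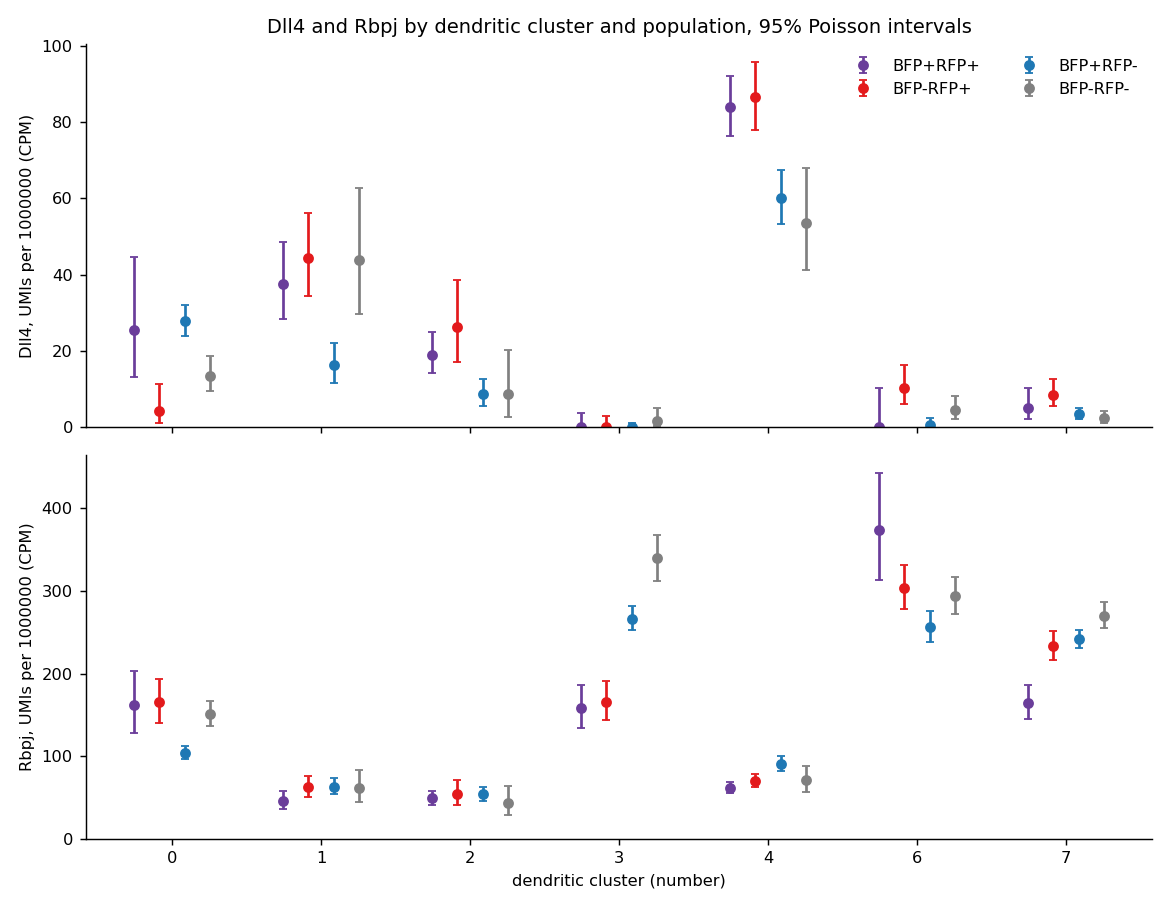
CPM of Dll4 (upper panel) and Rbpj (lower panel) on the y axes for each dendritic cluster (x axis) and population (colours), with 95% Poisson intervals, for groups of at least 20 cells. Dll4 peaked in cluster 4 and was near 0 in cluster 3, whereas Rbpj was highest in clusters 3, 6 and 7.

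Dll4 was detected in a larger share of the cells with Tnfsf4, the OX40L gene, than of those without it. In dendritic cells thinned to 5000 UMIs, Dll4 was detected in 16.7% (14.0% to 19.6%) of 708 cells with a Tnfsf4 UMI and in 4.44% (3.79% to 5.17%) of 3559 cells without one. Weighting the cells without Tnfsf4 to the same clusters gave 10.4%, still below 16.7%. Tnfsf4 itself, the gene that BFP reports, had 305, 53.0, 102 and 19.8 CPM in the 4 populations. These shares come from cells of 1 capture and are a description.

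Jag1, a Jagged ligand, had levels closer together. It stood at 24.5 CPM (22.0 to 27.2) in BFP+RFP+, 32.5 (29.7 to 35.4) in BFP-RFP+, 26.1 (24.5 to 27.8) in BFP+RFP- and 29.0 (26.4 to 31.9) in BFP-RFP- cells. BFP- cells were slightly higher than BFP+ cells, by a log2 ratio of BFP+ over BFP- of -0.41 (-0.61 to -0.21) within RFP+ and -0.15 (-0.32 to 0.01) within RFP-, none past 1.5-fold. The RFP ratios were -0.09 and 0.16, with intervals across 0. Among dendritic clusters Jag1 was lowest in cluster 3, at 6.20 CPM, and in cluster 2, at 15.7, and lay between 31.4 and 37.0 in the other 5. Cluster 3 was thus poor in both ligands. Jag2, the other Jagged ligand, had 23, 23, 32 and 19 UMIs, or 1.63, 1.46, 0.90 and 1.28 CPM, with overlapping intervals. At 97 UMIs it fell just short of the 100 needed to be counted below.

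Notch2, the receptor that dendritic cells are known to use, was detected in all populations at similar levels. It had 36.4 CPM (33.3 to 39.6) in BFP+RFP+, 41.3 (38.2 to 44.6) in BFP-RFP+, 37.1 (35.1 to 39.2) in BFP+RFP- and 46.0 (42.7 to 49.6) in BFP-RFP- cells. The largest log2 ratio was -0.31 (-0.44 to -0.18), BFP+ over BFP- within RFP-. Among dendritic clusters it ranged from 24.2 CPM in cluster 1 to 53.5 in cluster 6, and the B cell-like cluster was higher still at 82.3 (63.8 to 105).

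Notch1, the receptor best known from T cell development, had 2.55, 2.60, 2.11 and 1.34 CPM, on 36, 41, 75 and 20 UMIs. The T and NK cell-like cluster held 102 of its 172 UMIs at 33.5 CPM, against 0.55 CPM (0.39 to 0.75) in the dendritic clusters. Its ratios of 0.62 (BFP+ over BFP- within RFP-) and 0.94 (RFP+ over RFP- within BFP-) passed 1.5-fold, but both set 20 BFP-RFP- UMIs against others. That population had 5 Notch1 UMIs in its dendritic clusters. The 12 T and NK cell markers, none at 0, summed to 487, 475, 456 and 386 CPM in the 4 populations. Of these UMIs Il7r alone gave 4924 of 6892, 4335 of 7487, 9049 of 16233 and 3577 of 5738, so the sums mostly follow 1 gene. Inside the T and NK cell-like cluster Notch1 stood at -0.44 (-1.33 to 0.59) for BFP+ over BFP- within RFP-. For RFP+ over RFP- within BFP- it stood there at 0.41 (-0.54 to 1.47), both with intervals across 0. The part of T and NK cell-like cells in the Notch1 ratios was not tested.

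Rbpj, which carries the Notch signal to DNA and represses the same genes without it, ran in the opposite order to Dll4. It stood at 86.3 CPM (81.5 to 91.3) in BFP+RFP+, 139 (133 to 145) in BFP-RFP+, 160 (155 to 164) in BFP+RFP- and 208 (200 to 215) in BFP-RFP- cells, on 1220, 2186, 5681 and 3088 UMIs. No intervals overlapped. The log2 ratio of RFP+ over RFP- was -0.89 (-0.98 to -0.80) for BFP+ cells and -0.58 (-0.66 to -0.50) for BFP- cells. That of BFP+ over BFP- was -0.69 (-0.79 to -0.58) for RFP+ cells and -0.38 (-0.44 to -0.31) for RFP- cells. Without the other clusters the values were -0.88, -0.58, -0.72 and -0.42.

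Rbpj also divided the dendritic clusters. Clusters 6, 3 and 7 had 285, 255 and 240 CPM, cluster 0 had 123, and clusters 4, 1 and 2 had 73.8, 58.6 and 51.5. The clusters low in Dll4 were thus those highest in Rbpj. Within clusters the population differences varied in size and direction. In cluster 3 the RFP ratios were -0.74 (-0.998 to -0.51) for BFP+ and -1.03 (-1.27 to -0.80) for BFP- cells, while in cluster 6 they were 0.55 (0.27 to 0.81) and 0.05, and in cluster 0 0.64 (0.28 to 0.98) and 0.13. With cluster make-up held equal the RFP ratios came to -0.17 and -0.26 and the BFP ratios to -0.11 and -0.20, none past 1.5-fold.

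In thinned dendritic cells Rbpj was detected in 26.1% (21.0% to 31.7%) of 276 cells with a Dll4 UMI and 41.4% (39.9% to 43.0%) of 3991 cells without. Cells without Dll4 weighted to the same clusters gave 28.8%, inside the interval of the former. The lower share of Rbpj in Dll4-positive cells was thus close to what their clusters had.

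Of the target genes, Hes1, a transcriptional repressor, had 124 UMIs, at 1.41 CPM in BFP+RFP+, 3.11 in BFP-RFP+, 0.65 in BFP+RFP- and 2.15 in BFP-RFP- cells. Most lay outside the dendritic clusters: 71 in macrophage-like cluster 10, at 20.3 CPM, and 13 in the B cell-like cluster, at 16.0. The dendritic clusters had 0, 11, 10 and 3 Hes1 UMIs in the 4 populations, and 0.33 CPM (0.21 to 0.49) in all. Over all cells Hes1 was higher in BFP- cells, with BFP+ over BFP- at -1.12 (-1.97 to -0.36) within RFP+ and -1.73 (-2.57 to -0.92) within RFP-. These ratios rest on 8, 24, 18 and 17 cells with a Hes1 UMI. The 5 cells with the most held 85%, 57.1%, 43.5% and 62.5% of them, a spread between cells that the intervals do not cover. The 12 macrophage markers, none at 0, were in sum also higher in the BFP- populations, at 265, 679, 189 and 684 CPM. Of these UMIs Lyz2 gave 1633 of 3748, 5081 of 10694, 2646 of 6722 and 5174 of 10182. Apoe gave 1478, 3386, 2192 and 1646, so the sums mostly follow these genes. Macrophage-like cells numbered 29, 76, 27 and 43. Inside cluster 10 Hes1 was lower in BFP+ cells too, at -1.62 (-3.02 to -0.51) within RFP-, on 8 against 28 UMIs. The part of macrophage-like cells in the Hes1 ratios was not tested. In dendritic clusters the ratio within RFP- was 0.30 (-1.50 to 2.95), on 10 against 3 UMIs. Within RFP+ the BFP+ cells were lower there too, at 0 against 11 UMIs, with an upper bound of -1.24 on the ratio.

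Dtx1, which encodes an E3 ubiquitin ligase of the pathway, had 2.33, 5.65, 3.62 and 4.77 CPM, on 33, 89, 129 and 71 UMIs. The T and NK cell-like cluster held 160 of 322 UMIs at 52.5 CPM and the B cell-like cluster 33 at 40.6 CPM, against 1.44 CPM in dendritic clusters. BFP+RFP+ cells were lowest, at -1.26 (-1.90 to -0.68) against BFP-RFP+ cells and -0.62 (-1.23 to -0.07) against BFP+RFP- cells. In dendritic clusters alone Dtx1 had 0.93, 2.11, 0.98 and 2.38 CPM, with the BFP ratio at -1.15 (-2.29 to -0.17) within RFP+ and -1.28 (-2.04 to -0.53) within RFP-, and the RFP ratios at -0.04 and -0.17. There the BFP- populations, on 29 and 32 UMIs, were both above the BFP+ populations, on 12 and 32. With cluster make-up held equal the BFP ratio within RFP+ was 0.093, so that ratio depended on which clusters were counted. Inside the T and NK cell-like cluster the BFP ratio was -1.64 (-2.65 to -0.79) within RFP+ and -0.78 (-1.40 to -0.11) within RFP-. Within RFP- it was -2.67 (-4.38 to -1.31) in dendritic cluster 0, on 6 against 16 UMIs. In cluster 7 it was -0.21 (-1.49 to 1.21), on 14 against 9.

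Esam, the adhesion molecule, was lowest in BFP+RFP+ cells at 16.7 CPM (14.6 to 19.0) and had nearly the same level in the other 3 populations, at 23.1 (20.8 to 25.6), 23.5 (21.9 to 25.1) and 23.5 (21.1 to 26.1). The BFP+RFP+ interval did not reach the others. The log2 ratios were -0.47 (-0.71 to -0.23) against BFP-RFP+ and -0.49 (-0.71 to -0.28) against BFP+RFP- cells, short of 1.5-fold. Esam was highest in cluster 0, at 48.8 CPM (44.8 to 53.1), and lowest among dendritic clusters in cluster 7, at 13.2. Cluster 0 had the highest median CD11b tag of the dendritic clusters, 224 UMIs per cell against 20 to 44 in the other 6.

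Counting members past 1.5-fold (log2 0.58 in size) was restricted to genes with at least 100 UMIs, which 8 of the 10 members and 10888 genes reached. Between BFP+ and BFP- within RFP+, 0 members were higher and 3 lower (Rbpj, Hes1, Dtx1), where 2.64% and 10% of all genes were. Within RFP- 2 were higher (Dll4, Notch1) and 1 lower (Hes1), against 2.3% and 5.04%. Between RFP+ and RFP- within BFP+, 2 were higher (Dll4, Hes1) and 2 lower (Rbpj, Dtx1), against 4.32% and 6.41%. Within BFP- 2 were higher (Dll4, Notch1) and 0 lower, against 5.54% and 3.66%, with Rbpj just inside the mark at -0.58. Of these members Hes1, Dtx1 and Notch1 had 124, 322 and 172 UMIs, most of them outside the dendritic clusters. The 4 comparisons share populations and are no independent evidence of each other. The median gene lay at -0.10, -0.07, -0.03 and -0.01, and the members' medians at -0.44, -0.23, -0.06 and 0.20.

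**Figure D4:**
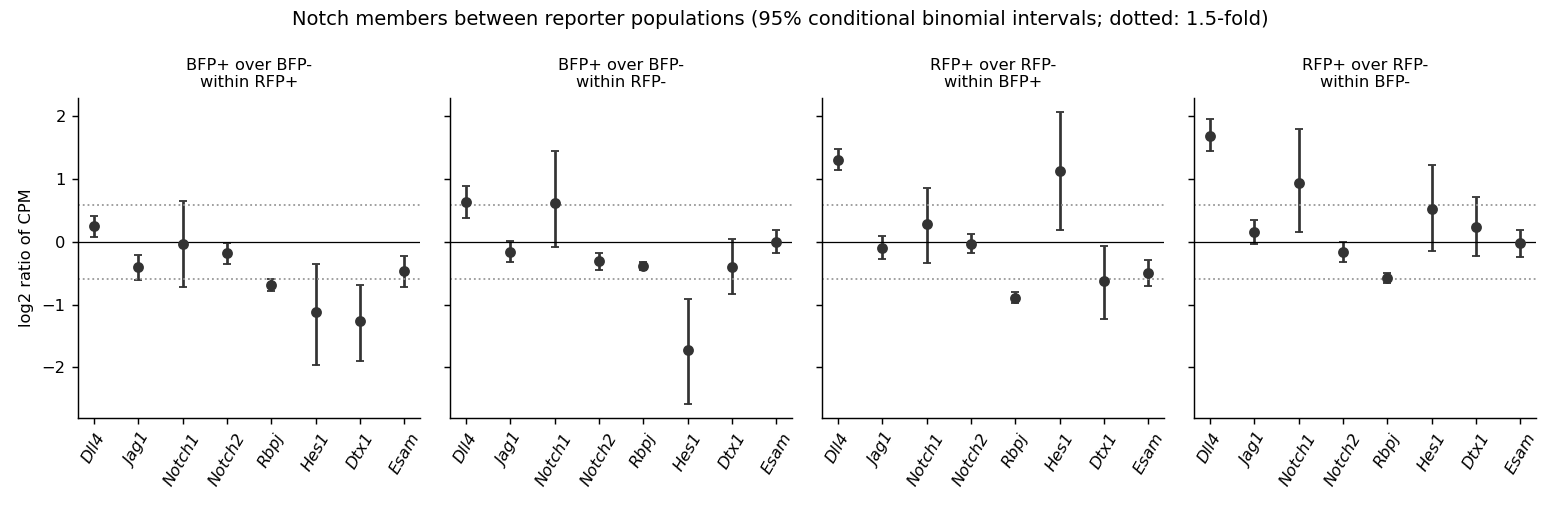
Log2 ratio of CPM (y axis) of the 8 members with at least 100 UMIs in the 4 comparisons of populations, with 95% conditional binomial intervals and dotted lines at 1.5-fold. Dll4 lay above 0 and Rbpj below 0 in each panel, and Hes1, Notch1 and Dtx1 had the widest intervals.

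Antibody tags allowed the members to be set against surface proteins rather than reporters. Cells were ranked by the UMIs of 1 tag and cut into 4 bands of 1255 or 1256 cells. A band is a range of tag counts and no cell type, and bands differed in depth, with median mRNA UMIs of 11702 to 17380 from the lowest to the highest CD11b band and 10932.5 to 18217 for CD172a.

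CD8a tag separated Dll4 and Rbpj most. Dll4 went from 14.3 and 13.8 CPM in the lower bands to 26.7 and 35.7 in the upper ones, a log2 ratio of highest over lowest of 1.32 (1.11 to 1.54). Rbpj went from 208 and 213 CPM to 139 and 86.2, a ratio of -1.27 (-1.35 to -1.19). Notch2 was also lower with more CD8a tag, at -0.53 (-0.67 to -0.38), while Jag1 (0.14) and Esam (-0.01) had intervals across 0. Of the members 1 was higher and 2 lower (Rbpj and Hes1), against 5.2% and 11.4% of genes. In dendritic clusters Hes1 stood at -1.01 (-3.08 to 0.95), on 5 against 6 UMIs. Within populations the Rbpj ratio was -1.31, -1.33, -0.90 and -1.32, but that of Dll4 was 1.86, 1.56 and 0.64 and then -0.61 in BFP-RFP- cells, there on 73 UMIs. CD8a tag itself was highest in BFP+RFP+ cells, with a median of 121 UMIs against 63, 42 and 40.

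CD301b and CD172a tags went the other way. With CD301b, a lectin of type 2 conventional dendritic cells, Dll4 went from 34.4 to 28.4, 21.6 and 17.1 CPM, a log2 ratio of -1.01 (-1.20 to -0.83), whereas Rbpj was higher at 0.57 (0.49 to 0.64) and Jag1 at 0.61 (0.44 to 0.78). Of the members 1 was higher (Jag1) and 4 lower (Dll4, Notch1, Hes1, Dtx1), against 4.16% and 10.8% of genes. Dll4's ratio by population was -0.18, -1.99, -0.08 and -0.26, so it was largest in size in BFP-RFP+ cells. With CD172a, Dll4 stood at -0.78 (-0.98 to -0.58), Rbpj at 0.75 (0.66 to 0.83) and Jag1 at 0.70 (0.52 to 0.89). Dll4's ratio by population was -0.39, -1.56, 0.76 and -0.60, so its direction was turned in BFP+RFP- cells. Over all kept cells 3 members were higher with CD172a (Jag1, Rbpj, Hes1) and 3 lower (Dll4, Notch1, Dtx1), against 7.24% and 15.3% of genes. In dendritic clusters the Jag1 ratios were 0.56 with CD172a and 0.50 with CD301b, both under the 1.5-fold mark. There the CD301b ratios of Dll4, Notch1, Hes1 and Dtx1 were -1.23, -1.50, 0.45 and -0.44, that of Notch1 on 7 against 13 UMIs. The lowest CD172a band held 170 of the T and NK cell-like cells. Without the other clusters Notch1 and Dtx1 went from -2.39 and -2.44 to -1.32 and -0.83, and Dll4 to -1.07.

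CD11b tag went with Esam, which stood at 15.5 in the lowest band and then moved to 19.4, 23.9 and 27.1 CPM, a log2 ratio of 0.80 (0.59 to 1.03), and with Rbpj, at 0.59 (0.52 to 0.67). Of the members 3 were higher (Rbpj, Hes1, Esam) and 2 lower (Notch1, Dtx1), against 7.86% and 11.6%. In dendritic clusters Esam stood at 0.84 and Rbpj at 0.53, below the mark. Dll4 had its highest level in the third CD11b band, 31.2 CPM, and its ratio by population was -0.37, 0.46, 1.60 and 2.20, while over all cells it was 0.29 (0.08 to 0.51). Esam by population was 0.70, -0.02, 1.21 and 0.66.

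**Figure D5:**
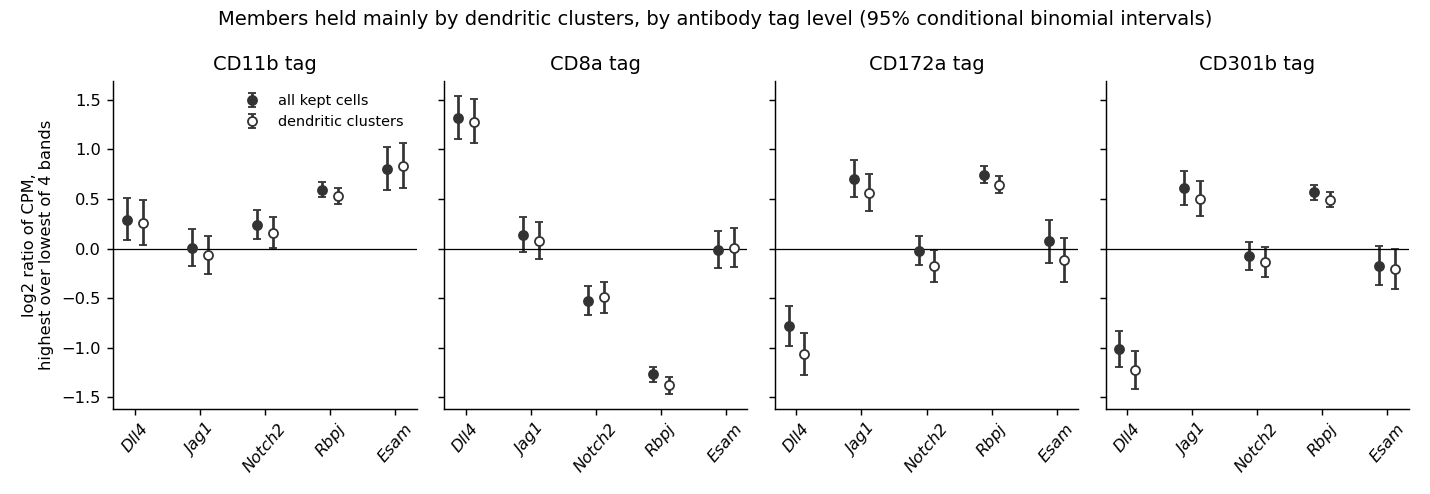
Log2 ratio of CPM (y axis) between the highest and the lowest band of cells by each antibody tag, for the 5 members held mainly by dendritic clusters that had at least 1000 UMIs, in all kept cells (filled) and in dendritic clusters (open), with 95% conditional binomial intervals. Dll4 and Rbpj lay on opposite sides of 0 for CD8a, CD172a and CD301b, and Esam was above 0 for CD11b.

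Further genes of the pathway were counted in the same way. Of 49 further genes (ligands, proteases, glycosyltransferases, ubiquitin ligases, nuclear cofactors and targets) 36 had at least 100 UMIs. Past 1.5-fold were 1 higher and 3 lower for BFP+ over BFP- within RFP+, 1 and 1 within RFP-, 0 and 1 for RFP+ over RFP- within BFP+, and 3 and 1 within BFP-. These counts stand beside the shares of all genes given above. Their medians of -0.13, -0.10, -0.09 and -0.11 lay near those of all genes.

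By role, the other ligand genes had few counts, with 15 UMIs of Dll1, 2 of Dll3, 3 of Dlk2 and 0 of Dlk1 over all kept cells, and the receptor Notch3 had 63. Among proteases Furin, which cuts the receptor during its maturation, was lower in BFP+ cells within RFP- at -0.60 (-0.84 to -0.36). The Fringe genes, whose enzymes add sugars to the receptor and tune its choice of ligand, were lower for Mfng at -0.59 (-1.15 to -0.07) in BFP+ within RFP+ and for Rfng at -0.70 (-1.66 to 0.09) in RFP+ within BFP+, the latter on 126 UMIs in all.

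The ubiquitin ligases that drive ligand uptake were more varied. Neurl1a was higher in BFP+ cells within RFP- at 0.75 (0.39 to 1.15) and in RFP+ cells within BFP- at 0.88 (0.48 to 1.31), both against the same BFP-RFP- cells, and Neurl1b was lower in the latter comparison at -0.62 (-1.11 to -0.14). Mib2 was lower in BFP+ cells within RFP+ at -0.65 (-1.22 to -0.12) and higher in RFP+ cells within BFP- at 0.73 (0.19 to 1.29). Of the Mastermind coactivators, Maml2 was higher in BFP+ cells within RFP+ at 0.72 (0.57 to 0.87). Maml3 stood at -0.87 (-1.14 to -0.62) in the same comparison and at 0.85 (0.60 to 1.11) in RFP+ over RFP- within BFP-, but 1 cell held 101 of its 1142 UMIs and in dendritic clusters the former ratio was 0.03. Other target genes were scarce, with 34 UMIs of Hey1, 16 of Hey2, 2 of Heyl, 4 of Hes5, 78 of Hes7 and 35 of Nrarp, as were Numbl (80), an inhibitor, and Dtx4 (53).

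Likeness was described over 24 groups of 1 dendritic cluster and 1 population with at least 50 cells, as the Pearson correlation of log2(CPM + 1) with 6453 genes of at least 1000 UMIs outside both Notch lists. These groups share 1 capture and, by cluster, related cells, so the values are a description. Dll4 was most like Gpr183 (r 0.94), an oxysterol receptor that guides dendritic cells, Spred2 (0.93), an inhibitor of Ras signalling, and Plscr1 (0.93). Rbpj was most like P3h2 (0.94), a collagen prolyl hydroxylase that is also a leading gene of cluster 6, Pdxk (0.93) and Pbx3 (0.93). Notch2 was most like Zeb2 (0.91), a transcription factor of myeloid cells, Arhgap12 and Zfp451. Jag1 was most like Pvr (0.89), an adhesion receptor, Serpinb9 and Kif16b, and Esam most like Surf4 (0.91), Cd1d1 (0.89), which presents lipids, and Tap2 (0.88), a peptide transporter. Between members, Dll4 and Rbpj had r -0.73, Notch2 and Rbpj 0.64, and Dll4 and Jag1 0.56.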

How the data were processed

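CITE-seq counts of 1 capture were used. The authors deposited raw UMI counts of 22548 genes, 4 antibody tags and 4 hashtags in 6079 barcodes, and per the file headers Cell Ranger 7.0.0 made the matrix. The submitters' processing notes name GRCm39 (mm39). How barcodes were called as cells is not given in the sources used here. The hashtags were matched to populations by the deposited feature description.

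From these counts UMIs were summed per population, cluster or tag band. Intervals are exact at 95% (Poisson for levels, conditional binomial for log2 ratios with 0.5 UMI added, Clopper-Pearson for shares) and cover counting error only. A count of 0 allows up to 3 counts. The 4 populations had 14140272, 15746616, 35590897 and 14877282 mRNA UMIs. Clusters were made in scanpy 1.11.5 (log of counts per 10000, 2000 variable genes, 30 components, 15 neighbours, Leiden resolution 0.5). The B cell-, T and NK cell- and macrophage-like clusters were named from at least 3 raised markers (at least 1 higher on the log2 scale and in at least 20% of cells). The 7 others were called dendritic because each of 15 markers was in at least 20% of their cells. Both rules were set after the values had been seen. Hashtag conflicts marked 699 barcodes (11.5%) as mixed or unclear. From these, 286 doublets within populations are expected among the barcodes assigned to a hashtag (5.31% of them), before the other filters. Such doublets were not removed.

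Named were all members, and from the wider list the 3 genes per direction with the largest ratios past 1.5-fold in each comparison and those under 100 UMIs. The members and lists were chosen with earlier results of these data known. Alternatives were another hashtag share, HTODemux in Seurat 5.3.0 (R 4.3.3), other cell filters, TMM scaling in edgeR 4.0.16, equal weight per cell, clusters and tag definitions. The calculations were tested on simulated counts. Promoter windows came from RefSeq.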

Additional observations from a re-analysis of the deposited data

Results flagged for a closer look

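Genes of the wider Notch list were looked at again where the same reporter ratio had opposite directions in both states of the other reporter, each with a counting interval that left out 0. Each population is 1 sample and the difference between the states was not tested. Maml2, a Mastermind coactivator, was higher in RFP+ cells within BFP+ at log2 0.15 (0.04 to 0.27) and lower within BFP- at -0.40 (-0.56 to -0.25). In dendritic clusters alone these values were 0.36 and -0.55, and 64.9% of the Maml2 UMIs lay there. Mib2, a ubiquitin ligase of ligand uptake, was lower in BFP+ cells within RFP+ at log2 -0.65 (-1.22 to -0.12) and higher within RFP- at 0.50 (0.03 to 1.02), on 330 UMIs in all. In dendritic clusters alone it stood at -0.60 and 0.39.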

How the results depend on the processing

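Of the members' log2 ratios between populations, 316 values under an alternative stayed within their counting interval, 29 moved outside it and 7 changed sign. For tag bands the numbers were 51, 41 and 4. Of the percents of thinned cells at another depth and of genes past the fold, 35 moved and 13 did not. The counts of members past 1.5-fold moved by over 1.5 times in 14 of 56 cases. The counts that follow take both directions together. They stand without the share of all genes under the same alternative, so they cannot be read as a result about the members. With the same mix of dendritic clusters in each population the count went from 3 to 1 for BFP within RFP+, from 3 to 1 for BFP within RFP- and from 4 to 2 for RFP within BFP+, with Dtx1 at 0.093 and 0.90 and Hes1 at -3.02. In dendritic clusters alone the count was 1 for BFP within RFP-, Hes1 stood at 0.30 there and at -3.05 for RFP within BFP+, and at resolution 1 at 0.44 and -3.20. These negative Hes1 values are set by the 0.5 UMI added to 0. The count for BFP within RFP- was also 1 without the 5% of cells with the most UMIs and with equal weight per cell. For RFP within BFP- it went from 2 to 4, 5 and, in dendritic clusters at resolution 1, 4. For tags, dendritic clusters alone took CD11b from 5 to 2 members, with Notch1 at 0.80, and CD301b from 5 to 2, with Hes1 at 0.45. Dividing tag by mRNA UMIs took CD8a from 3 to 5 and CD301b to 2, with Hes1 at 0.17 and Dtx1 at 0.24, and a cut into 3 bands took CD301b to 3. TMM scaling raised the median gene by at most 0.10. Beyond the make-up of the cells counted, the cause of these moves was not tested. The depth gave Notch4, Jag2, Hes1 and Notch1 under 200 UMIs each, too few to compare populations closely. No paired analysis was possible because the populations are 1 sample each, with no numbered replicates.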

Other observations

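In dendritic cells thinned to 5000 UMIs, Notch2 was detected in a somewhat larger share of cells with Rbpj than without. The share was 18.8% (16.96% to 20.7%) of 1725 cells with an Rbpj UMI and 14.1% (12.8% to 15.5%) of 2542 cells without. Weighting the latter to the same clusters also gave 14.1%. Esam went the other way, in 7.42% (6.23% to 8.76%) of cells with Rbpj and 11.7% (10.5% to 13.0%) of those without, or 10.4% in the same clusters. Dll4 was detected in 9.11% (6.53% to 12.3%) of 417 cells with a Jag1 UMI and 6.18% (5.44% to 6.99%) of 3850 without, with 7.55% in the same clusters, inside the former interval.

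Over the wider list, antibody tags met genes that the reporters did not. Dtx3l, an E3 ligase that is also induced by interferon, was higher in the highest than in the lowest CD11b band by log2 0.92 (0.74 to 1.10), and 1.06 in dendritic clusters. Adam17, a sheddase, was higher with CD172a at 0.70 (0.59 to 0.82), but 0.55 in dendritic clusters. Adam10, which cleaves bound Notch receptors, was lower with CD8a at -0.66 (-0.77 to -0.54), and -0.65 in dendritic clusters. These genes were picked after their values had been seen.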
